A study of Rattus norvegicus with 27 samples.

Results

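The microarray signals of 10 feedback and early-response genes of the growth factor MAPK pathway were followed in cultured rat oligodendrocyte precursor cells (OPCs) taken off platelet-derived growth factor (PDGF). They were Dusp4, Dusp6, Spry1, Spry2, Spry4, Etv4, Etv5, Egr1, Fos and Myc, a list fixed by gene name. It was chosen with earlier results of these data known, which limits every count of its genes set against all probe sets. Every probe set to which the array annotation assigns 1 of these symbols alone was taken, which gave 15 probe sets for the 10 genes out of 31042 probe sets and 14217 genes with a probe set of their own. Each of the 10 genes had at least 1 probe set. Dusp6 had 3 probe sets and Etv4, Etv5 and Fos had 2 each; below, the brightest of them (by its mean over the 27 arrays) represents the gene, and the others are described beside it.

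The arrays were hybridized with RNA of OPCs from the cerebral cortex of rat pups of postnatal day 4 to 6, selected with magnetic beads for the surface antigen A2B5 and expanded with PDGF-AA and Noggin, an antagonist of bone morphogenetic proteins. Cells of the PDGF group were kept in PDGF at 20 ng/mL and collected at 0 h. Cells of the T3 groups were moved from PDGF to triiodothyronine (T3, 10 nM), the thyroid hormone that drives differentiation, and collected at 8, 24, 48 and 96 h. Cells of the T3+IFNγ groups received the same T3 together with interferon γ at 10 ng/mL and were collected at the same 4 times. Each of the 9 groups held 3 arrays, 1 per donor, 27 arrays in all. PDGF arrays existed at 0 h only, so that the loss of PDGF, the addition of T3 and time in culture cannot be told apart in any comparison with PDGF. Values were log2 signals, and all differences are log2 differences unless a fold is named.

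PDGF binds its receptor on OPCs and activates Ras, the kinases Raf and MEK and finally ERK, which enters the nucleus and switches on a first wave of genes within minutes. Some of these genes encode transcription factors (Egr1, Fos, Myc, and later the ETS factors Etv4 and Etv5), and others encode inhibitors that feed back on the same pathway (the Sprouty proteins and the MAPK phosphatases Dusp4 and Dusp6). In OPCs this signal supports proliferation and holds back differentiation, and levels of these genes are widely read as a measure of ERK activity. Interferon γ acts through another route, the kinases JAK1 and JAK2.

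The promoter windows of Dusp6, Spry1 and Spry2 are shown here, to set their sequence beside their signals. RefSeq windows of the rat assembly GRCr8, with 250 bases before and 50 bases from the start on, were matched for 6 of the 10 genes (Dusp6, Spry1, Spry2, Spry4, Etv5 and Egr1; Spry2 had 2 windows, for 2 starts). Dusp4, Etv4, Fos and Myc were not matched. Dusp6 is shown for its course at 48 h, Spry1 for its change with IFNγ and Spry2 for a motif match. They lie at chr7:35979354-35979653 on the plus strand, chr2:122485097-122485396 on the plus strand and chr15:89111877-89112176 on the minus strand, in this order. In Dusp6 and Spry1 the capitals mark the bases from the start on, and in Spry2 they mark a match to CCGGAA, a sequence that ETS factors bind.
Dusp6: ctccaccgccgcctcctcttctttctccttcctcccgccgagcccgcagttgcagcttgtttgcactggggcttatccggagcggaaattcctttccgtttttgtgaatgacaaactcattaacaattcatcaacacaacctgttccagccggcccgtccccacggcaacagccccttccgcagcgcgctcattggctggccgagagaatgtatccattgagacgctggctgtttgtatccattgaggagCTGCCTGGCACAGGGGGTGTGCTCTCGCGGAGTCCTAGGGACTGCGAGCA
Spry1: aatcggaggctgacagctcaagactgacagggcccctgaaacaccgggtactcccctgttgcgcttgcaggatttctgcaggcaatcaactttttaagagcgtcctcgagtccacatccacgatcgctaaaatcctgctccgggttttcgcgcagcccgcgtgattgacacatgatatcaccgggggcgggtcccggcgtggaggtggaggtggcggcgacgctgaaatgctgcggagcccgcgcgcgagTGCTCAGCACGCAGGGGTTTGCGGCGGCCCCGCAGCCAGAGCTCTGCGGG
Spry2: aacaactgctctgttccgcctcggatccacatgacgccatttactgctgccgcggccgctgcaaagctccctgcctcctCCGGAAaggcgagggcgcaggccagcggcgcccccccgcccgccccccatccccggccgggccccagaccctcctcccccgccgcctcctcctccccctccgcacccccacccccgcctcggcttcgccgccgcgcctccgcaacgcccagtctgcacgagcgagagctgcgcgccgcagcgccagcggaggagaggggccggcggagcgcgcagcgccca

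Short motifs were searched on both strands of all 33469 windows of the RefSeq table: the CArG box (the serum response element to which SRF binds), CCGGAA (a form of the ETS site), TGANTCA (AP-1), TGACGTCA (cyclic AMP response element) and CACGTG (E-box). Other and shorter forms of the ETS site were not searched, so a window without CCGGAA may still hold them. Only the Egr1 window, among the 7 member windows, held a CArG box. It held 2, at positions -105 to -96 and -83 to -74 from the start, while 1.64% of all windows held 1 or more. CCGGAA was found in the Spry2 window shown above, at -171 to -166, and in the Spry4 window on the opposite strand at -81 to -76, against 15% of all windows. TGANTCA (7.33% of all windows), TGACGTCA (1.83%) and CACGTG (6.42%) were in none of the 7 member windows. These matches describe the letters in these windows and nothing more.

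Array quality and identity of the cells bear on all results. Medians of the 27 arrays lay between 5.95 and 6.03. The 6 measured OPC markers (Pdgfra, Olig1 and others) averaged 10.5 in all 3 PDGF arrays, and the 5 measured oligodendrocyte markers rose from averages of 6.16 to 6.28 in PDGF to 13.2 to 13.4 in T3 at 96 h. The defining markers of the labelled cells were thus present. The 5 vascular and fibroblast markers averaged 4.08 to 4.32 in every array. Markers of microglia were present: the 11 listed averaged 5.97 to 7.12 in PDGF, 4.84 to 5.16 in T3 at 96 h and 6.10 to 7.59 in T3+IFNγ at 96 h. Astrocyte markers were brighter. The 5 measured averaged 7.68 to 8.65 in PDGF, 8.35 to 9.84 in T3 at 24 h and 8.91 to 9.56 in T3 at 96 h. The 5 neuronal markers averaged 6.95 to 7.23 in PDGF and 6.09 to 6.54 in T3 at 96 h. The difference between 3′ and 5′ probe sets of Gapdh, a sign of RNA integrity, was 0.37 in the T3+IFNγ array of donor 2 at 8 h and 0.11 in the same donor's array at 24 h, against -0.26 to 0.066 in the other 25 arrays. The IFNγ effects on Spry1 and Fos at 8 and 24 h are therefore also given without these 2 arrays. Effects on the other genes are not.

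**Figure D1:**
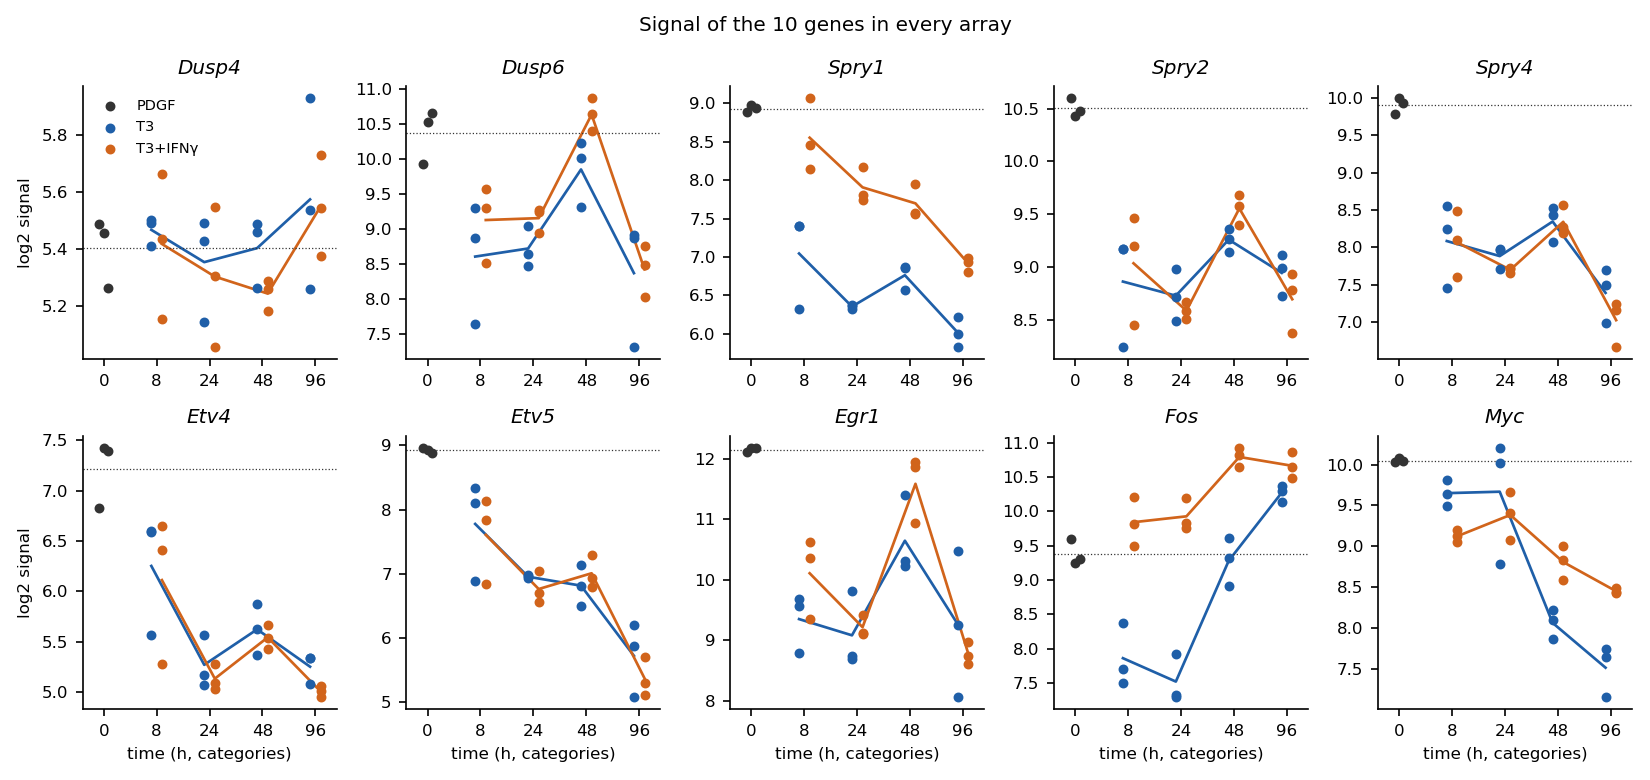
Log2 signal (y axis, scaled per gene) of the 10 genes in each of 27 arrays against time in h (x axis, categories): PDGF at 0 h in black, T3 in blue, T3+IFNγ in orange, with lines through the group means and a dotted line at the PDGF mean (n = 3 per group). Most genes fell from PDGF by 8 h, Dusp6 and Egr1 peaked again at 48 h, and T3+IFNγ lay above T3 for Spry1 and Fos at every time.

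The first question was what became of these genes after withdrawal of PDGF with T3. At 8 h 8 of the 10 genes were lower in T3 than in PDGF and none was higher (limma over all probe sets, adjusted p under 0.05). They were Dusp6, Spry1, Spry2, Spry4, Etv4, Etv5, Egr1 and Fos. Of all probe sets 3.64% were lower in that comparison, and the median change of the 10 genes was -1.58 against 0.0037 over all probe sets. At 24 h 8 of 10 were lower (12.8% of all probe sets), at 48 h 7 of 10 (18.5%) and at 96 h 8 of 10 (22.8%). At 96 h 1 gene, Fos, was higher than in PDGF (20.2% of all probe sets). Without donor 2, and likewise without donor 3, 5 of 10 were lower at 8 h. Median changes of the 10 genes were -1.90, -1.53 and -2.26 at 24, 48 and 96 h. All 4 comparisons share the 3 PDGF arrays, and those with T3+IFNγ below share the T3 arrays. In these bulk samples fewer cells that express a gene and less RNA per cell cannot be told apart.

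**Figure D2:**
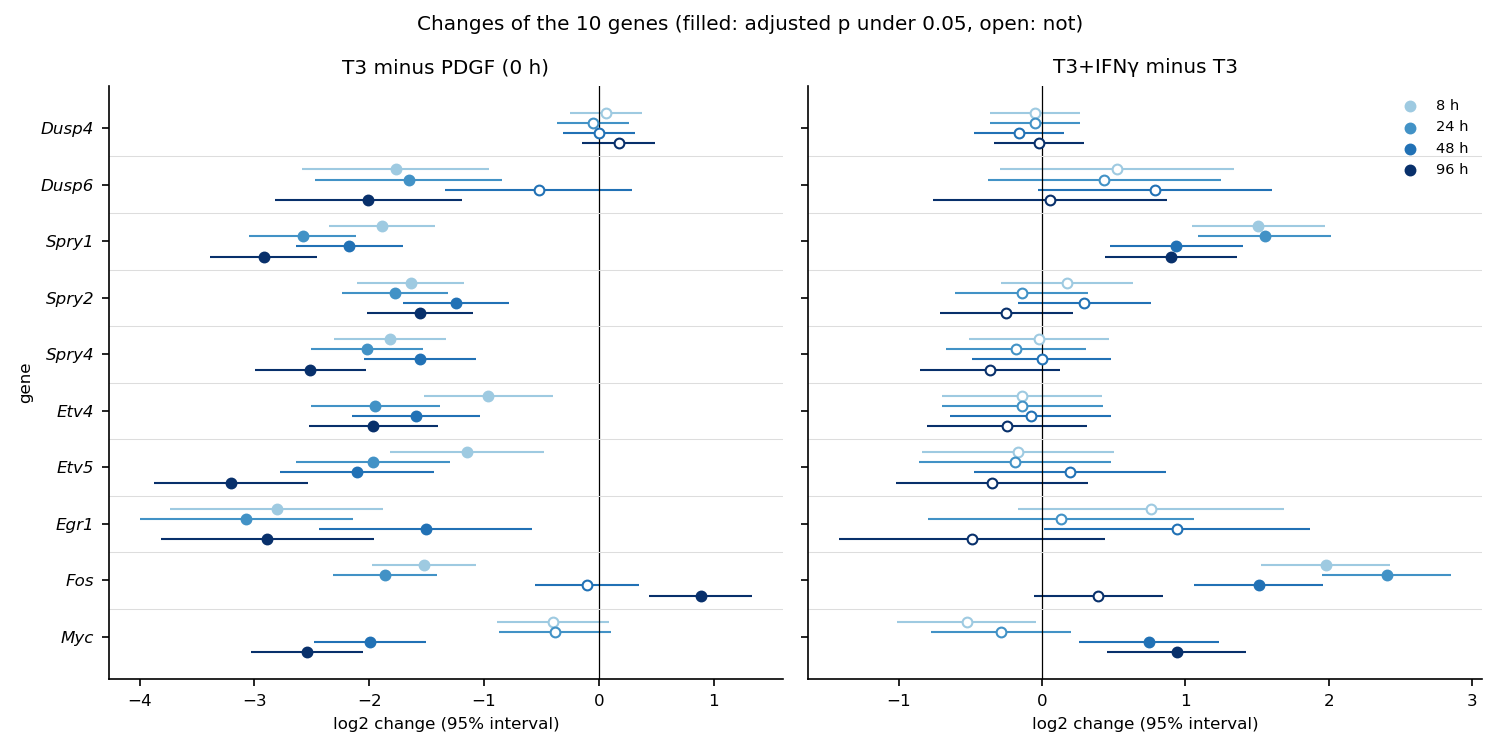
Log2 change (x axis) of each gene with its 95% interval, T3 minus PDGF on the left and T3+IFNγ minus T3 on the right, at 8, 24, 48 and 96 h from light to dark; filled points had an adjusted p under 0.05. The left panel shows falls in 8 genes by 8 h, while on the right only Spry1, Fos and Myc have filled points.

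The MAPK phosphatases remove phosphate from active ERK and its relatives. Dusp6, the cytoplasmic phosphatase selective for ERK, gave 9.94, 10.53 and 10.67 in the PDGF arrays of donors 1, 2 and 3 and 7.65, 8.88 and 9.30 in T3 at 8 h. The groups did not overlap, as in 23.9% of all probe sets. The change was -1.77 ± 0.39 (SE), 3.41-fold, with a limma adjusted p of 0.0072. At 24 h the change was -1.66 (adjusted p = 0.0024). At 48 h the T3 arrays stood at 9.32, 10.01 and 10.23. Donor 1 lay below the lowest PDGF array, donors 2 and 3 lay within the PDGF range, and each donor was below its own PDGF array (mean -0.52, 95% interval -1.34 to 0.29, adjusted p = 0.35). At 96 h they were back at 7.32, 8.87 and 8.92 (-2.01, adjusted p = 0.00017). The other 2 probe sets of Dusp6 gave -1.82 and -1.67 at 8 h and -2.23 and -1.77 at 96 h. Without donor 2 or donor 3 the limma adjusted p of Dusp6 at 8 h was 0.17 and 0.063. Dusp4, a nuclear phosphatase of the same family, had low signals of 5.06 to 5.93 in all 27 arrays, below the array medians, and its changes in T3 lay between -0.05 and 0.17 (smallest limma adjusted p 0.40).

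Sprouty proteins are induced by growth factors and block signalling between the receptor and Raf. All 3 measured here fell at all 4 times. Spry1 gave 8.89, 8.97 and 8.94 in PDGF and 6.32, 7.41 and 7.41 in T3 at 8 h, a change of -1.89 ± 0.22 or 3.70-fold (limma adjusted p = 2.2e-05). After a rise between 24 and 48 h in each donor that did not pass the test (0.41, adjusted p = 0.26), it stood at 5.83, 6.22 and 5.997 at 96 h, 7.57-fold below PDGF (-2.92, limma adjusted p = 1.8e-10). Every T3 array was thus more than 1 log2 unit below every PDGF array. Spry4, which acts on Ras activation downstream of several receptors, gave 9.79, 9.996 and 9.93 in PDGF, then 7.45, 8.25 and 8.56 in T3 at 8 h and 6.99, 7.69 and 7.49 at 96 h. Its changes were -1.82 (limma adjusted p = 6.4e-05) and -2.51 (4.9e-09). Spry2, the most studied Sprouty, stood at 10.60, 10.43 and 10.48 in PDGF and at 8.24, 9.17 and 9.17 in T3 at 8 h. Its changes were -1.64 at 8 h, -1.77 at 24 h and -1.56 at 96 h (limma adjusted p of at most 0.000115).

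The PEA3 factors Etv4 and Etv5 are ETS transcription factors that ERK both induces and phosphorylates. Both were lower at 96 h than at 8 h. Etv5 gave 8.95, 8.93 and 8.89 in PDGF and 6.88, 8.11 and 8.33 in T3 at 8 h. Its T3 arrays had 6.96, 6.98 and 6.93 by 24 h, then 5.09, 6.21 and 5.87 by 96 h. Its change grew from -1.15 at 8 h (limma adjusted p = 0.030) to -1.97, -2.11 and -3.20, which is 9.19-fold at 96 h. Etv4 went from 6.83, 7.42 and 7.39 in PDGF to 5.57, 6.59 and 6.60 at 8 h, then to 5.57, 5.07 and 5.17 by 24 h (-0.96 and -1.95, limma adjusted p = 0.030 and 5.7e-06), and stayed near that level. From 24 h on its arrays of both arms lay below the array medians, like those of Dusp4, so that a further fall or an IFNγ effect could be missed. No T3 array reached the lowest PDGF array for either gene. Both 8 h calls were lost without donor 2 or without donor 3, with an adjusted p of 0.21 and 0.088 for Etv5 and of 0.20 and 0.19 for Etv4, and both stood without donor 1. The second probe set of Etv4 gave -0.99 and -1.71 at 8 and 96 h, with donor 1 higher in PDGF (7.84) than donors 2 and 3 (6.45 and 6.68). The second probe set of Etv5 moved less, -0.30 at 8 h (adjusted p = 0.34) and -0.74 at 96 h (adjusted p = 0.00055).

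Egr1, Fos and Myc are transcription factors of the first wave, and each followed its own course. Egr1, a zinc finger factor, was the brightest of the 10 genes in PDGF, with 12.12, 12.17 and 12.17. It fell to 8.79, 9.57 and 9.69 in T3 at 8 h, 6.98-fold (-2.80 ± 0.45, limma adjusted p = 0.00052), and to 9.81, 8.75 and 8.69 at 24 h (-3.07). It rose to 10.23, 11.40 and 10.30 at 48 h and spread widely at 96 h, with 8.07, 10.47 and 9.26 (SD 1.20). All 12 T3 arrays lay below all 3 PDGF arrays.

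Fos, the partner of Jun in the AP-1 complex, fell first and then rose past its starting level. The PDGF arrays gave 9.60, 9.24 and 9.31, the T3 arrays 8.37, 7.50 and 7.71 at 8 h and 7.93, 7.30 and 7.33 at 24 h. These falls were -1.52 (limma adjusted p = 0.00018) and -1.86 (4.8e-07). At 48 h the T3 arrays had 9.62, 9.32 and 8.91, close to PDGF, and at 96 h 10.30, 10.14 and 10.37, all above PDGF (0.89, limma adjusted p = 0.0017; 0.055 without donor 3). From 8 to 96 h the rise was 2.41, or 5.31-fold. The other probe set annotated to Fos stayed between 4.55 and 5.16 in all 27 arrays and showed none of this, so every value given for Fos rests on 1 probe set.

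Myc, the factor that drives cell growth, fell mainly between 24 and 48 h. It gave 10.03, 10.08 and 10.04 in PDGF and 9.50, 9.65 and 9.81 in T3 at 8 h, a change of -0.40 with a 95% interval of -0.89 to 0.09 (limma adjusted p = 0.39). At 24 h donor 1 stood at 8.79 and donors 2 and 3 at 10.20 and 10.02, so that the donors disagreed. At 48 h all 3 were low, with 7.86, 8.22 and 8.09 (-1.99, limma adjusted p = 4.2e-07), and at 96 h they had 7.16, 7.64 and 7.74 (-2.54, 5.81-fold). The step from 24 to 48 h was -1.61 (limma adjusted p = 4.8e-05). At 8 h, by comparison, the changes of Dusp6, Egr1 and the Sproutys were already -1.64 to -2.80.

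Whether levels went on changing after 8 h was tested directly in T3 at 96 h against T3 at 8 h. Spry1, Spry4, Etv4, Etv5 and Myc were lower at 96 h, 5 of 10 against 21.3% of all probe sets, and Fos was higher, 1 of 10 against 17.3%. Changes were -1.03 for Spry1, -0.69 for Spry4, -1.001 for Etv4, -2.05 for Etv5 and -2.14 for Myc (limma adjusted p of at most 0.0218). Dusp6, Spry2 and Egr1 differed by -0.24, 0.08 and -0.09, with 95% intervals from -1.05 to 0.58, -0.38 to 0.55 and -1.01 to 0.84. Without donor 3 the count of lower genes was 2 and without donor 2 it was 3.

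Several of the genes rose from 24 to 48 h, which was seen in the values first and then given a comparison of its own between neighbouring times. In T3, from 24 to 48 h, Egr1 rose by 1.56 (limma adjusted p = 0.021) and Fos by 1.76 (5.6e-06), 2 of 10 genes against 5.36% of all probe sets, and Myc was the 1 gene that fell (7.97% of all probe sets). Dusp6 rose in each donor, by 0.28, 1.53 and 1.58; its adjusted p was 0.060 and, with the donor as a block, 0.0035. The other 2 Dusp6 probe sets gave 1.16 and 1.20 (limma adjusted p = 0.019 and 0.048). Over the same step in T3+IFNγ, Dusp6 rose by 1.48, Egr1 by 2.37, Spry2 by 0.97 and Fos by 0.86 (limma adjusted p of at most 0.016), 4 of 10 genes against 4.12% of all probe sets, and no gene was lower (6.26%). Whether the step differed between T3+IFNγ and T3 was not tested. Dusp6 reached 10.40, 10.65 and 10.87 in T3+IFNγ at 48 h, above its PDGF value in each donor, and Egr1 reached 10.95, 11.95 and 11.87. The Dusp6 groups overlapped, and its difference from PDGF was not called. The second Dusp6 probe set was above PDGF in donor 1 (8.74 against 8.28). It was below PDGF in donors 2 (8.71 against 8.74) and 3 (8.93 against 9.04). The third was above PDGF in each donor.

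After 48 h the courses parted. From 48 to 96 h in T3, the changes were -1.48 for Dusp6, -1.38 for Egr1, -0.75 for Spry1, -0.96 for Spry4 and -1.09 for Etv5 (limma adjusted p of at most 0.0304), 5 of 10 genes against 11.1% of all probe sets, while Fos alone rose further (0.99, limma adjusted p = 0.0017; 8.88% of all probe sets). Etv5, among the genes that fell, had not risen over the step before (-0.14). In T3+IFNγ 6 of 10 fell, with changes of -2.22 for Dusp6, -2.81 for Egr1, -0.79 for Spry1, -0.86 for Spry2, -1.32 for Spry4 and -1.63 for Etv5 (limma adjusted p of at most 0.0158; 8.24% of all probe sets), and none rose (9.21%). Dusp6 and the 3 Sproutys fell in all 3 donors in both arms over this step. These counts depended on donors 2 and 3. In T3 the count of lower genes from 48 to 96 h was 1 without donor 2, 1 without donor 3 and 6 without donor 1, and in T3+IFNγ the count of higher genes from 24 to 48 h was 1, 0 and 6. The low arrays of Egr1 at 48 h were those of donor 1 in T3+IFNγ and of donors 1 and 3 in T3.

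The second question was whether IFNγ changed these genes. Few of them were higher: Spry1 and Fos at 8 h (2 of 10 genes, 2.7% of all probe sets), Spry1 and Fos at 24 h (4.28%), Spry1, Fos and Myc at 48 h (5.64%) and Spry1 and Myc at 96 h (5.51%). None of the 10 was lower at any time. In either direction 1125, 2691, 3724 and 3132 of the 31042 probe sets were called at 8, 24, 48 and 96 h. With so small a part of all probe sets called, the lack of a lower gene among 10 says little about these genes. Without donor 1, donor 2 or donor 3 the count of higher genes was 5, 2 and 1 for 48 h, and for 96 h it was 2, 1 and 0. Without donor 1, Myc was lower at 8 h (-0.64, limma adjusted p = 0.0039) and 24 h (-0.58, 0.0057) and Spry2 at 96 h (-0.48, 0.041). For the effect averaged over the 4 times, Spry1 and Fos were higher, 2 of 10 against 9.84% of all probe sets, and the median change of the 10 genes was 0.12 against -0.045 over all probe sets. The other 8 genes had mean effects between -0.15 and 0.45.

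Spry1 passed the test for IFNγ at all 4 times. Its arrays gave 8.14, 9.07 and 8.46 in T3+IFNγ at 8 h against 6.32, 7.41 and 7.41 in T3, and 7.74, 8.17 and 7.81 against 6.35, 6.38 and 6.33 at 24 h. At 48 h they gave 7.95, 7.58 and 7.56 against 6.87, 6.85 and 6.56, and at 96 h 6.81, 6.94 and 6.99 against 5.83, 6.22 and 5.997. The groups overlapped at no time, while 14.9%, 24.2%, 29% and 30.1% of all probe sets did not overlap at 8, 24, 48 and 96 h. The differences were 1.51, 1.55, 0.94 and 0.90 (limma adjusted p = 6.5e-05, 3.3e-05, 0.0061 and 0.0091), with a mean of 1.22 or 2.34-fold. Without donor 3 the adjusted p at 48 and 96 h was 0.15 and 0.20, and in a fit on the 2 groups alone it was 0.10 at 8 h. With IFNγ at 8 h Spry1 still overlapped PDGF (-0.38, 95% interval -0.84 to 0.08), and at 96 h it was 4.06-fold below PDGF. In the order of its 9 group means, PDGF, T3+IFNγ at 8, 24 and 48 h came first and T3 at 96 h last, and neighbours overlapped except between T3+IFNγ at 48 h and T3 at 8 h and between the last 3 groups. Spry2 and Spry4 had mean IFNγ effects of 0.02 (95% interval -0.21 to 0.25) and -0.14 (-0.39 to 0.10). At 48 h Spry2 was above T3 by 0.32, 0.25 and 0.31 in donors 1, 2 and 3 (adjusted p = 0.48). Its groups did not overlap there, as in 29% of all probe sets. Whether the effect differed between the Sproutys was not tested.

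Fos had the largest IFNγ effect of the 10 genes at 8, 24 and 48 h and on average, while at 96 h those of Myc (0.94) and Spry1 (0.90) were larger. It gave 10.21, 9.50 and 9.82 in T3+IFNγ at 8 h, then 10.20, 9.83 and 9.75 by 24 h. The later T3+IFNγ arrays had 10.64, 10.92 and 10.81 (48 h), then 10.64, 10.49 and 10.86 (96 h). The lowest of these 12 arrays, at 9.50, lay within the range of PDGF, while the T3 arrays at 8 and 24 h lay at 7.30 to 8.37. Against T3 the differences were 1.98, 2.41, 1.51 and 0.39 (limma adjusted p = 7.0e-07, 2.1e-08, 2.7e-05 and 0.32), and all 3 donors were higher at every time. The effect was smaller at 96 h than at 8 h, by -1.59 (limma adjusted p = 0.0035), 1 of 10 genes with a smaller effect against 1.5% of all probe sets. The adjusted p of that difference was 0.13 without donor 2 and 0.15 without donor 3.

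The IFNγ effect on Myc changed with time. At 8 h the T3+IFNγ arrays had 9.19, 9.12 and 9.05, below the T3 arrays (9.50, 9.65 and 9.81), a difference of -0.53 whose adjusted p was 0.34. At 48 h they had 8.9997, 8.59 and 8.83 and at 96 h 8.42, 8.44 and 8.49, above all T3 arrays at those times. The differences were 0.75 and 0.94 (limma adjusted p = 0.040 and 0.0096), and without donor 2 or donor 3 they were 0.94 and 0.75 at 48 h (adjusted p = 0.12 and 0.30) and 1.01 and 1.03 at 96 h (0.081 and 0.13). The change of the effect from 8 to 96 h was 1.47 (limma adjusted p = 0.014), 1 of 10 genes with a larger effect against 1.46% of all probe sets, and its adjusted p was 0.18 without donor 2 and 0.29 without donor 3. Myc in T3+IFNγ at 96 h was still 3.03-fold below PDGF.

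**Figure D3:**
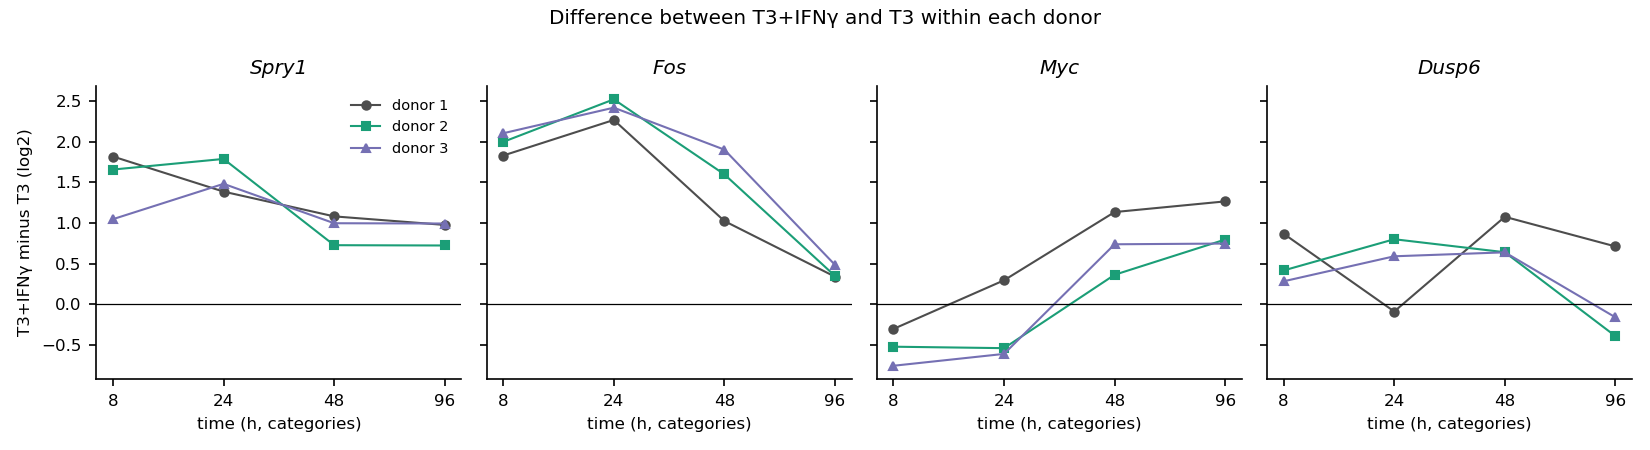
Difference between T3+IFNγ and T3 (y axis, log2) within each of 3 donors at 8, 24, 48 and 96 h (x axis, categories) for Spry1, Fos, Myc and Dusp6. Spry1 and Fos were above 0 in all 3 donors at all times, and Myc went from below 0 at 8 h to above 0 at 48 and 96 h in all 3.

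Dusp6, by any of its 3 probe sets, and Egr1 did not pass the test for IFNγ at any single time. The differences of Dusp6 were 0.87, 0.42 and 0.28 in donors 1, 2 and 3 at 8 h and 1.08, 0.64 and 0.64 at 48 h (mean 0.79, adjusted p = 0.24). The groups did not overlap at 48 h, as in 29% of all probe sets. With the donor as a block the limma adjusted p at 48 h was 0.043, and that of the mean effect, 0.45, went from 0.10 to 0.011. The mean effect was 0.46 for the second Dusp6 probe set, which passed without the block (limma adjusted p = 0.044), and 0.29 for the third (adjusted p = 0.32). Egr1 differed by 0.76 at 8 h and 0.94 at 48 h (adjusted p = 0.56 and 0.21). Etv4 and Etv5 had mean effects of -0.15 and -0.13, with 95% intervals of -0.43 to 0.13 and -0.46 to 0.21, and Dusp4 had -0.07 (-0.23 to 0.09).

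Markers of microglia moved with IFNγ in the same arrays. Of the 11 listed, 8 were higher and 1 lower in the mean effect, and 8 were lower in T3 at 96 h than in PDGF. Their summed linear signal was 856 to 2418 in T3 and 1360 to 3727 in T3+IFNγ at 8 h, and 347 to 436 against 1044 to 4223 at 96 h. Of the defining markers, P2ry12 rose by 2.61 and Aif1 by 1.97, while Cx3cr1 differed by 0.01 (adjusted p = 0.91) and Tmem119 fell by 0.27 (limma adjusted p = 0.045). Donor 2 had the lowest marker sums in T3+IFNγ at 24, 48 and 96 h and donor 3 the highest. The Spry1 difference at these times was 1.39, 1.08 and 0.98 in donor 1, 1.79, 0.73 and 0.72 in donor 2 and 1.48, 0.998 and 0.99 in donor 3. That of Fos was 2.27, 1.03 and 0.34 in donor 1, 2.52, 1.60 and 0.35 in donor 2 and 2.42, 1.90 and 0.49 in donor 3. In T3+IFNγ at 8 h the sums were 1360, 1428 and 3727 in donors 1, 2 and 3. There the differences were 1.82, 1.66 and 1.05 for Spry1 and 1.83, 2.00 and 2.11 for Fos. Other marker lists moved too. All 5 oligodendrocyte markers were lower with IFNγ in the mean effect (median -1.03). Of 5 neuronal markers 1 was higher, Tubb3 (1.497), which was also the only one called at each single time. Their summed signal overlapped between the arms at no time. In T3 and T3+IFNγ it was 1269 to 1402 and 2081 to 2659 at 8 h, and 966 to 1018 and 1428 to 1764 at 24 h. It was 521 to 719 and 1252 to 1452 at 48 h, and 442 to 663 and 1044 to 1451 at 96 h. Of 5 astrocyte markers 1 was higher, Aldh1l1 (1.22). Their sums were higher with IFNγ in each donor at 48 h (4056 to 6554 in T3 and 6544 to 8696 in T3+IFNγ). At 8, 24 and 96 h the donors went both ways, with 8781 to 12177 in T3 and 7742 to 10856 in T3+IFNγ at 96 h. The part of any of these cells in the results was not tested. Without the 2 arrays of donor 2 with a high Gapdh difference, the effect at 8 and 24 h was 1.25 and 1.42 for Spry1 and 2.15 and 2.46 for Fos (limma adjusted p of at most 0.000943).

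The wider pathway was read from lists of other genes at each level, none of which contains a member. Their counts stand against the shares of all probe sets, which in T3 against PDGF were 3.64% lower and 4.17% higher at 8 h and 22.8% lower and 20.2% higher at 96 h, and 15% lower and 9.84% higher in the mean IFNγ effect. At the top, 14 growth factor receptors were measured: at 8 h 1 was lower, Fgfr1 (-0.53), and at 96 h 3 were lower and 3 higher, shares near those of all probe sets. Pdgfra, the PDGF receptor of OPCs, was lower at 96 h (-1.43, limma adjusted p = 2.1e-07), and Fgfr2 and Erbb3, receptors of FGF and neuregulin found on maturing oligodendrocytes, were higher (4.41 and 1.38). With IFNγ Pdgfra was higher than in T3 (0.57) and Erbb3 and Fgfr3 were lower (-0.51 and -0.61).

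Of 10 adaptors and Ras activators, 1 was higher at 8 h, the docking protein Gab1 (0.71), which reached 1.85 at 96 h. Ptpn11, the phosphatase that couples receptors to Ras, was higher at 96 h (1.14) and the adaptor Shc1 lower (-0.82). With IFNγ Shc1 and Gab1 were higher (0.61 and 0.35) and the Ras exchange factor Sos1 lower (-0.24). Of 7 measured genes of the cascade from Ras to ERK and its RSK kinases, 1 was lower at 8 h, Rps6ka3 (-0.66). At 96 h Rps6ka3 was lower (-1.82) and Rps6ka2 and Araf were among the 3 higher genes (2.91 and 1.01). Nras and Map2k1, which encodes MEK1, were higher with IFNγ by 0.38 and 0.33, and Rps6ka2 was lower (-0.48).

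Feedback genes outside the list of 10 did not move as one. Of 17 measured, 3 were lower and 2 higher at 8 h, and 6 were lower and 7 higher at 96 h, with median changes of -0.07 and 0.12. Phlda1 (-1.68), the ERK phosphatase Dusp5 (-0.51) and the ubiquitin ligase Cbl (-0.51) were lower at 8 h. At 96 h Dusp10 (3.26), Dusp7 (2.20) and Dusp1 (1.33), phosphatases of the same family as Dusp6, were higher, in the direction opposite to Dusp6. Dusp1 and Dusp7 were lower with IFNγ (-0.74 and -0.69), as was Spry3 (-0.44).

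Of 25 measured other immediate early genes, 9 were lower at 8 h and none higher, and 8 were lower and 4 higher at 96 h. At 24 h 12 were lower (12.8% of all probe sets). Egr2, the relative of Egr1 known for its role in myelinating Schwann cells, had -3.81 at 8 h and -3.89 at 96 h. Klf10 had -2.21 and -2.45, and the nuclear receptor Nr4a1 -1.49 at 8 h, while Atf3, a stress-response factor, was higher at 96 h (1.75). With IFNγ 9 of the 25 were higher and 2 lower in the mean effect, led by the small Maf factor Maff (1.77), Klf4 (1.36) and Zfp36, which destabilizes cytokine mRNA (0.92).

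Of 8 measured SRF and ETS factors outside the PEA3 group, 2 were lower at 8 h, Elk4 (-0.47) and Srf (-0.33), and 6 at 96 h, where Elk3 (-2.10), Ets1 (-1.93) and Ets2 (-1.64) had the largest changes. Ets1 was higher with IFNγ by 0.81, and Etv1 and Elk4 by 0.29 and 0.21. The Myc family itself moved in both directions. Mycl (1.43) and the Myc antagonists Mxi1 (1.11) and Mxd4 (1.09) were among 4 of 9 genes higher at 8 h, and at 96 h Mycl was higher (2.77) and Mycn and Mxd3 lower (-2.33 and -3.00). With IFNγ Mxd1, Mxi1 and Max were higher (0.55, 0.47 and 0.40).

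Genes of growth and ribosome production known as Myc targets were lower in growing number. Of 13 measured, 7 were lower at 8 h, 10 at 24 h, 12 at 48 h and 13 at 96 h, with medians of -0.62, -0.55, -0.76 and -1.35, while the share of all probe sets that were lower went from 3.64% to 12.8%, 18.5% and 22.8%. Cad, of pyrimidine synthesis, had -0.89 at 8 h and -2.11 at 96 h, Shmt2, of serine metabolism, had -0.82 at 8 h, and Odc1, of polyamine synthesis, had -0.75 and -1.79. Fbl, a nucleolar methyltransferase, had -1.77 at 96 h. With IFNγ 4 were lower and 1 higher in the mean effect: Fbl (-0.31) and Nop56 (-0.28) were lower and Odc1 (0.32) was higher. At 96 h with IFNγ, when Myc was higher than in T3, none of the 13 was called. Of all 31042 probe sets 3132 were called there in either direction, and 5.51% were higher. With so few called, the lack of a call among 13 genes says little about them.

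**Figure D4:**
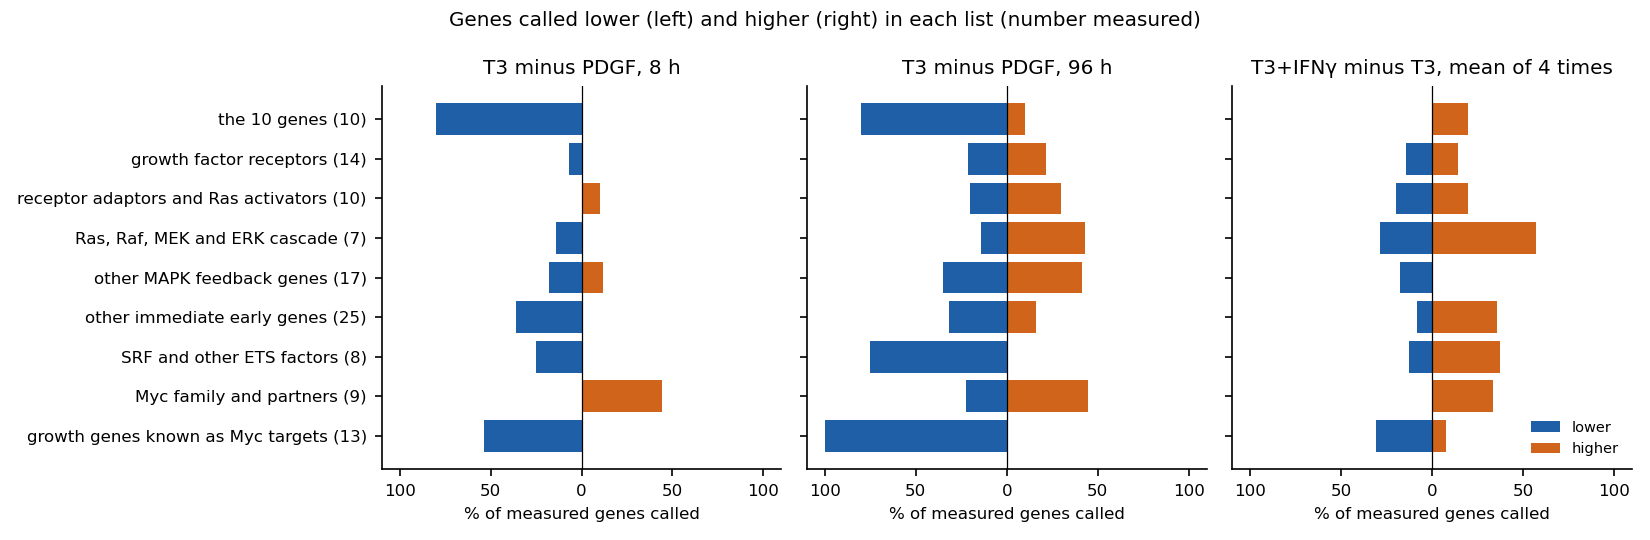
Share of measured genes called lower (blue, to the left) and higher (orange, to the right) in the 10 genes and in each pathway list, in % of the number in brackets, for T3 minus PDGF at 8 and 96 h and for the mean of T3+IFNγ minus T3. The 10 genes and the Myc targets are mostly lower in T3, while the cascade itself and the other feedback genes are mixed.

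The profiles of the 10 genes over the 9 group means were compared with their own mean profile after scaling, as a description. Pearson correlations were 0.94 for Spry4, 0.93 for Spry2, 0.90 for Egr1, 0.89 for Etv4, 0.84 for Etv5, 0.82 for Spry1 and 0.77 for Dusp6, and lower for Myc (0.50), Fos (0.067) and Dusp4 (-0.33); each gene is part of that mean. Among 9399 other genes the profiles most like it over these 9 points belonged to Rap1b (0.957), Inpp5f (0.955), Lef1 (0.954), Hectd2 (0.952) and Ubash3b (0.949). Lef1, a transcription factor of Wnt signalling, had group means of 7.99 in PDGF, 6.24 in T3 at 8 h and 5.31 at 96 h. Ubash3b, a phosphatase that acts on receptor kinases, went from 9.49 to 7.97 and 6.29. Rap1b, a small GTPase, changed little in size, from 11.55 to 11.32 and 11.21.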

How the data were processed

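The deposited values were log2 signals per probe set for 27 Affymetrix rat arrays. The submitters' processing notes name RMA (background correction, quantile normalization and summary over probes) and limma, with no versions and no model. Quantile normalization gives all arrays the same distribution, so a shift common to most genes cannot be seen. Groups, times and donors came from the sample labels.

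From these values, 57 control probe sets were left out and 31042 were fitted in limma 3.58.1 (R 4.3.3) with 1 mean per group over all 27 arrays, moderated by empirical Bayes. p-values were adjusted by Benjamini-Hochberg over all probe sets within a comparison, and an adjusted p under 0.05 counted as a call. No filter on low values was used. Gene names came from the platform annotation, which can be old: 20826 probe sets had 1 symbol, 436 several and 9780 none. The comparisons between neighbouring times and between T3+IFNγ and PDGF, 8 of 19 in all, were added after the values were seen. Same-numbered arrays come from the same donor, and their deviations from the group means correlated (median r 0.295, against -0.151 between donors). Deviations within a group cancel out by construction, so the value between donors is tied to the first and is no separate baseline. The fit was also run with the donor as a block. Arrays carry no counts, so that 3 arrays per group limit the precision.

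The 10 genes and the other lists were chosen with earlier results of these data known. All 10 genes were named with every probe set. From each other list up to 3 called genes with the largest change were named, for T3 against PDGF at 8 or 96 h and for the mean IFNγ effect, besides the 5 genes (mean of at least 6) with the profile most like that of the 10. Alternatives were 1 probe set per gene, arrays centred on their median, a filter at a log2 value of 6 in 3 arrays, the groups compared alone, a trended robust prior, each donor left out, another probe set of the same gene, and the T3+IFNγ arrays of donor 2 at 8 and 24 h left out. The fit was tested on simulated data. Further motifs that were searched are not reported here. Promoter windows were read in Python 3.11.15 with pandas 2.3.3 and figures drawn with matplotlib 3.10.9.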

Additional observations from a re-analysis of the deposited data

Results flagged for a closer look

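The effect of IFNγ on Fos and on Myc differed between 96 and 8 h in a direct test of that difference, in opposite directions. For Fos the effect changed by -1.59 (limma adjusted p = 0.0035), from 1.98 at 8 h to 0.39 at 96 h, and it was above 0 in all 3 donors at both times. For Myc the effect changed by 1.47 (limma adjusted p = 0.014), from -0.53 at 8 h to 0.94 at 96 h, below 0 in all 3 donors at 8 h and above 0 in all 3 at 96 h. Neither difference kept an adjusted p under 0.05 without donor 2 (0.13 for Fos and 0.18 for Myc) or without donor 3 (0.15 and 0.29).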

How the results depend on the processing

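The counts and changes above were recomputed under each alternative. Centring the arrays, the filter on low values and the trended robust prior moved no count by over 1.5 times. With the donor as a block, 3892 probe sets were called in T3 against PDGF at 8 h (2424 without it) and 1626 for the IFNγ effect at 96 against 8 h (919). The block brought calls to Dusp6, as given above, to Spry4 (0.64, adjusted p = 0.024) from 24 to 48 h in T3+IFNγ, to Fos in T3+IFNγ against PDGF at 24 h (0.54, adjusted p = 0.014), and to second probe sets of Etv5 in T3 at 24 h (adjusted p = 0.024), Dusp6 in T3 at 48 h (0.044) and Etv4 from 48 to 96 h in T3+IFNγ (0.025) (both other Dusp6 probe sets were also called with IFNγ at 48 h, 0.042 and 0.025). It changed no other call.

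In fits on the compared groups alone, 5 members were lower in T3 at 8 h, 1 was higher with IFNγ at 8 h, and 320, 635, 1763 and 2690 probe sets were called in T3 at 8 h, with IFNγ at 8 and 24 h and from 24 to 48 h in T3. With 1 probe set per gene 12.7% were called in T3 at 8 h (7.81% of probe sets). Without the T3+IFNγ arrays of donor 2 at 8 and 24 h, 2064 probe sets were called from 24 to 48 h in T3+IFNγ (3222 with them). The second Fos probe set, flat in all arrays, gave -0.10 in T3 at 96 h, -0.021, -0.20, -0.15 and -0.093 with IFNγ at 8, 24 and 48 h and on average, 0.02 for the IFNγ effect at 96 against 8 h, -0.089 from 48 to 96 h in T3, and -0.16 and -0.093 in T3+IFNγ against PDGF at 48 and 96 h.

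Leaving out 1 donor gave these ranges. In T3 against PDGF, 5 to 8 members were lower at 8 h and 0 to 1 higher at 96 h, with 189 to 1938 and 5203 to 8041 probe sets called at 8 and 24 h. With IFNγ, 0 to 1 members were lower at 8, 24 and 96 h, and 1 to 5 and 0 to 2 were higher at 48 and 96 h; probe sets called were 555 to 1382, 988 to 2831, 1467 to 4013 and 1573 to 2834 at the 4 times and 4422 to 7520 on average. In T3 at 96 against 8 h, 2 to 5 members were lower. For the IFNγ effect at 96 against 8 h, 0 to 2 members were lower and 0 to 1 higher, with 229 to 934 probe sets. From 24 to 48 h in T3, 1 to 4 members were higher (1466 to 4874 probe sets), and in T3+IFNγ 0 to 1 were lower and 0 to 6 higher (815 to 3943). From 48 to 96 h in T3, 1 to 6 were lower and 0 to 1 higher (3044 to 6244), and in T3+IFNγ 3 to 7 were lower (2249 to 5931). Each of these counts of probe sets was lowest without donor 2 or without donor 3. The fits without a donor hold 18 arrays; the cause was not tested.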
